A study of Mus musculus with 10 samples.

Results

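The genes described here encode the receptors for glutamate, GABA and glycine, the fast and modulatory transmitters of the retina, in retinal ganglion cells (RGCs). Members were taken by symbol, as every gene named Gria, Grik, Grin, Grm, Gabra to Gabrr, Gabbr, Glra or Glrb with at least 20 unique molecular identifiers (UMIs, tags that mark captured RNA molecules) summed over the 10 count matrices. The symbols matched 49 genes and 44 of them, of 34254 genes counted, reached 20 UMIs. These 44 fell into 8 receptor classes: 4 AMPA, 5 kainate, 8 NMDA, 7 metabotropic glutamate, 12 GABA-A, 1 GABA-A receptor gene of the Gabrr group, 2 GABA-B and 5 glycine receptor genes. The member just inside the minimum was Grin3b with 28 UMIs, and the symbol just outside it was Gabrr1 with 16. The others under 20 were Grm6 with 8, Gabre and Gabrr3 with 4 each and Gabra6 with 0, and none of these 5 was analysed further.

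RGCs were profiled by droplet scRNA-seq in 10 libraries, 6 of uninjured retinas and 4 made 2 weeks after optic nerve crush (ONC), an injury that severs the axons of RGCs behind the eye. The study's methods name wild-type 129S1/SvImJ mice and Thy1-YFP reporter mice on that background without saying which gave these libraries. Both groups were described as coming from animals of both sexes at 12 weeks of age (P84). Cells of 10 retinas were pooled per batch and captured on plates coated with antibody to Thy1, and RGCs were selected by the authors before deposit, so a library is a pool of animals and not an animal. The labels name the v3 kit and a NovaSeq sequencer where the methods name v2 and a HiSeq, and the labels mention depletion of macrophages where the methods add amacrine cells; which holds was not settled here. Uninjured 1 to 6 held 98, 103, 363, 651, 267 and 201 cells with 2839693, 3423989, 12673923, 23180399, 5686605 and 4674981 UMIs in all. Injured 1 to 4 held 338, 273, 527 and 471 cells with 5934728, 4698799, 8860536 and 6275218 UMIs. The median cell of a library carried 20437 to 34337 UMIs in the uninjured group and 11257 to 14695 in the injured group.

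Several libraries stood apart from their labels or from each other. Injured 3 and injured 4 had 421 cell barcodes in common, and their counts differed by no more than sampling noise (median chi-square over noise 0.985), so their mean was used as 1 sample, called injured 3/4, which left 6 uninjured and 3 injured samples. Uninjured 2 and uninjured 4 had 1 barcode in common, and no other pair of libraries had any. UMIs of the reporter mCherry were present in 86.0% (injured 3), 84.3% (injured 4), 7.99% (injured 1) and 15.0% (injured 2) of cells, and in 0% of uninjured cells. Xist, which is transcribed in female cells, was seen in 62.1% (injured 1) and 67.4% (injured 2) of cells and elsewhere in 0.569% or less, although every label names both sexes. Uninjured libraries were most alike in pairs (1 with 2, 3 with 4 and 5 with 6, median chi-square over noise 1.82, 1.87 and 1.47, against 3.86 to 21.2 for other uninjured pairs), as were injured 1 and injured 2 (2.28, against 4.76 to 5.12 with injured 3 or injured 4). Nothing in the labels says that libraries came from separate animals, so p-values measure the spread between these 9 samples. Xist and most mCherry thus split the injured group, and results for receptor genes with either side left out are given at the end. Xist was nearly absent from every uninjured library too, so sex and injury cannot be told apart where injured 1 and injured 2 are compared with the uninjured group. Every injured library was shallower than every uninjured library.

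The RGC label was checked against marker genes. All 9 RGC markers (Rbpms, Slc17a6, Sncg, Tubb3, Thy1, Nefl, Nefm, Pou4f1 and Pou4f2) had UMIs, with Sncg the most abundant, and their summed level was 6517 to 8803 CPM (UMIs scaled to a common library total with edgeR's TMM factors) in the uninjured samples and 4723, 5316 and 5802 CPM in injured 1, injured 2 and injured 3/4. Of these markers, 6 fell and 1 rose. All 11 amacrine cell markers also had UMIs, led by C1ql2, and summed to 61.9 to 215 CPM in the uninjured and 341, 301 and 277 CPM in the injured samples. That rise was carried by C1ql2 (7.48 to 28.7 CPM in the uninjured and 183 to 215 CPM in the injured samples), and of 9 tested 3 rose (C1ql2, Slc6a9 and Slc6a5), while Gad1, Gad2, Slc32a1, Tfap2a, Tfap2b and Tfap2c did not pass and had negative log2 fold changes. Horizontal cell markers (Septin4 and Calb1, with Lhx1 at 0) summed to 88.3 to 276 and then 54.5, 64.7 and 53.2 CPM, and both fell. Bipolar cell markers, led by Prkca, summed to 111 to 169 CPM in the uninjured and 115 to 163 CPM in the injured samples, where 1 of 3 tested, Gng13, fell. Müller glia markers, led by Dkk3, summed to 117 to 184 and 109 to 139.9 CPM, but of 6 tested 2 fell (Dkk3 and Apoe) and 3 rose (Glul, Rlbp1 and Sox9). Markers of photoreceptors, microglia, astrocytes and endothelial cells summed to at most 33.2, 18.9, 27.9 and 3.14 CPM in any sample, with Pde6b of photoreceptors (0 to 0.552 CPM in the uninjured and 8.75 to 11.9 CPM in the injured samples) and Cx3cr1 of microglia (1.68 to 5.43 CPM in the uninjured and 3.49 to 15.5 CPM in the injured samples) the ones that rose. Malat1, a nuclear RNA, made up a median of 1.72% to 4.82% of the UMIs of a cell in the uninjured libraries and 6.37% to 7.78% in the injured libraries.

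RGCs receive glutamate from bipolar cells and GABA and glycine from amacrine cells, and they are the only retinal cells whose axons leave the eye. Ionotropic receptors are ion channels built of several subunits: AMPA, kainate and NMDA receptors pass cations on binding glutamate, and GABA-A and glycine receptors pass chloride. Metabotropic glutamate receptors and GABA-B receptors act through G proteins, more slowly.

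After ONC most receptor genes that could be tested were lower. Of the 44 members, 40 passed the filter on low counts, and of these 27 fell, 3 rose (Gria1, Grik3 and Glra1) and 10 did not pass the test (quasi-likelihood test of edgeR, Benjamini-Hochberg adjustment at 0.05 over 14234 genes). Among all genes tested, 22.7% fell and 21.3% rose. The median log2 fold change was -1.15 over the 40 members and -0.03 over all genes tested, and the median absolute log2 fold change was 1.22 and 0.49. All injured samples lay below all uninjured samples for 27 of the 40, against 21.1% of all genes, and above them for 2, Gria1 and Grik3, against 21.9%. For 22 members the fall was past a log2 fold change of -1, against 13.7% of all genes. Members were sequenced more deeply than most genes (median 8753 UMIs over the 10 libraries against 1751.5, with 31 of 40 above the median of all genes tested), which helps a test to pass.

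Of 21 glutamate receptor genes tested, 16 fell and 2 rose, with a median log2 fold change of -1.09. Of 19 GABA and glycine receptor genes tested, 11 fell and 1 rose, with a median of -1.23. By class the median was -1.15 for AMPA, -0.57 for kainate, -1.37 for NMDA, -1.21 for metabotropic glutamate, -1.27 for GABA-A, -0.85 for GABA-B and -0.42 for glycine receptor genes. In the AMPA, kainate and glycine classes members moved in both directions. Genes whose call was lost when a library or a pair of similar libraries was left out are described with that value below; the pairs were chosen after the data were seen.

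**Figure D1:**
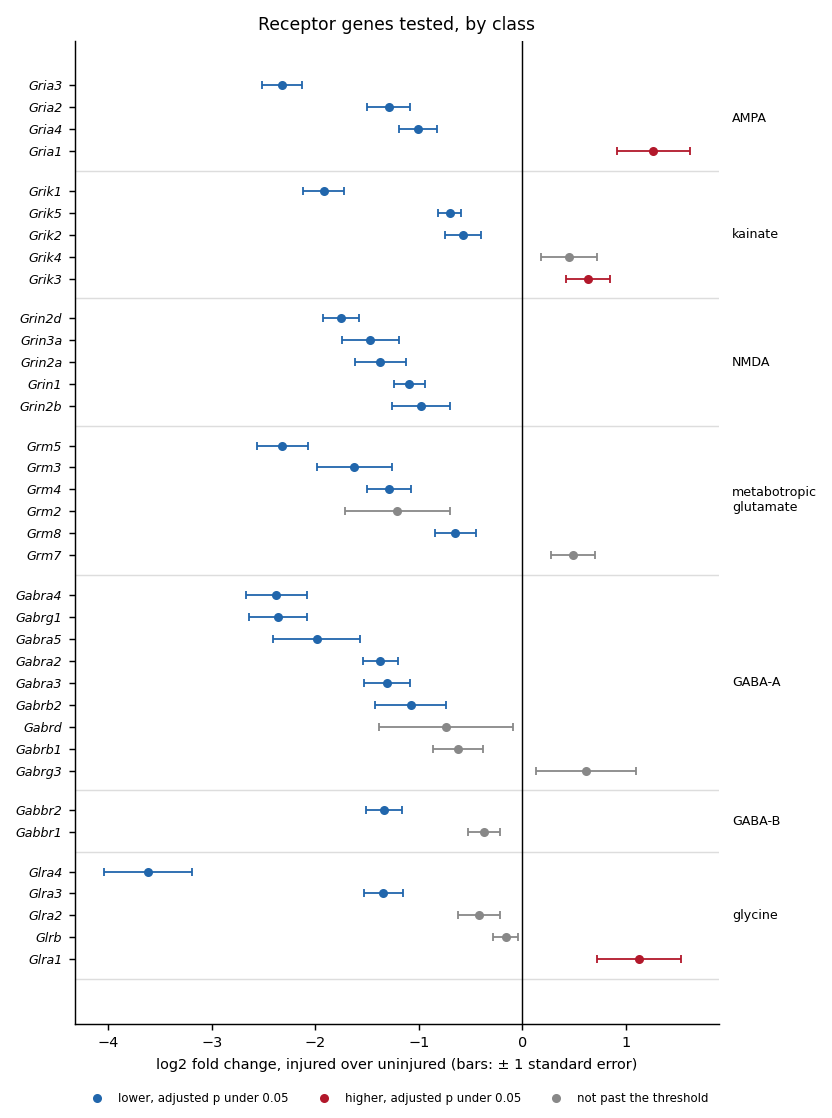
Log2 fold change of 36 of the 40 receptor genes tested, injured over uninjured, with bars of 1 standard error, grouped by receptor class (6 uninjured and 3 injured samples). Blue points are genes that fell (24), red points genes that rose (3: Gria1, Grik3 and Glra1) and grey points genes that did not pass the test (9).

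Of the AMPA receptor genes, 3 of 4 fell and Gria1 rose. Gria3, which encodes the GluA3 subunit, measured 193 to 282 CPM (median 229) in the uninjured samples and 54.6, 46.7 and 36.9 CPM in injured 1, injured 2 and injured 3/4. Every injured sample lay far below the lowest uninjured sample, and Gria3 fell by 2.33 on the log2 scale (SE 0.19; quasi-likelihood test of edgeR, Benjamini-Hochberg adjusted p = 2.42e-06). Gria2 encodes GluA2, the subunit whose RNA-edited form makes AMPA channels nearly impermeable to calcium, and it measured 293 to 491 CPM (median 450.4) in the uninjured samples and 162, 177 and 162 CPM in injured 1, injured 2 and injured 3/4. The groups did not overlap, and the injured samples were close to each other, at a log2 fold change of -1.29 (SE 0.21; quasi-likelihood test of edgeR, Benjamini-Hochberg adjusted p = 3.49e-04). The uninjured libraries 5 and 6 were the lowest of their group, and the log2 ratio of the injured mean to each uninjured pair was -1.53, -1.43 and -0.82 for pairs 1/2, 3/4 and 5/6. Gria4, the GluA4 gene, measured 350.5 to 515 CPM (median 421) in the uninjured samples and 243, 228 and 175 CPM in injured 1, injured 2 and injured 3/4. Its groups did not overlap either (log2 fold change -1.01, SE 0.18; quasi-likelihood test of edgeR, Benjamini-Hochberg adjusted p = 8.47e-04), although in cells with 3 to 5% of UMIs from Malat1 it did not pass (log2 fold change -0.47, adjusted p = 0.0545).

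Gria1, which encodes GluA1, measured 35.1 to 141 CPM (median 94.3) in the uninjured samples and 236, 228 and 155 CPM in injured 1, injured 2 and injured 3/4. All injured samples were above the highest uninjured sample, uninjured 1, while uninjured 5 and uninjured 6 were the lowest at 46.1 and 35.1 CPM. The rise was a log2 fold change of 1.27 (SE 0.35; quasi-likelihood test of edgeR, Benjamini-Hochberg adjusted p = 0.0121). Against uninjured pairs 1/2, 3/4 and 5/6 the log2 ratio was 0.74, 1.13 and 2.34. The call was lost without injured 1 (log2 fold change 1.16, adjusted p = 0.0524) and with similar libraries summed (log2 fold change 1.16, adjusted p = 0.0658), both with the quasi-likelihood test of edgeR and Benjamini-Hochberg adjustment. Without injured 1 and injured 2 together, injured 3/4 was the only injured sample, and the log2 fold change was 0.87. The direction was upward in all 23 other settings tried.

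Because Gria1 and Gria3 moved in opposite directions, the sequences around their annotated starts are shown, from 250 bases before to 50 bases after the start of the canonical GENCODE transcript (mm39, 5′ to 3′, lower case; capitals would mark a match to a motif described below, and neither window holds any). The window of Gria1 lies at chr11:56901903-56902202 on the forward strand of chromosome 11 and that of Gria3 at chrX:40489226-40489525 on the forward strand of chromosome X.
Gria1: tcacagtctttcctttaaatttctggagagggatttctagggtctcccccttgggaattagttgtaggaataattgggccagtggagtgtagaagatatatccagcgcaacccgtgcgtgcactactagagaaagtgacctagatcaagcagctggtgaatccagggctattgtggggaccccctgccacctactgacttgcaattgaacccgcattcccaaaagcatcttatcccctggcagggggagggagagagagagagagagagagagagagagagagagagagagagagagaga
Gria3: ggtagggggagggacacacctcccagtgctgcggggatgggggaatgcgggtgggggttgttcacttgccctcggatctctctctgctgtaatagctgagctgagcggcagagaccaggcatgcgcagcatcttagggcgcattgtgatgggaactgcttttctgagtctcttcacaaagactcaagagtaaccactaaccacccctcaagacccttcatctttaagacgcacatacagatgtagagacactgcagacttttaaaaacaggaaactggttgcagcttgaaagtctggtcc

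Of the kainate receptor genes, 3 of 5 fell, Grik3 rose and Grik4 did not pass. Grik1 encodes GluK1, a subunit that can form channels on its own, and measured 75.6 to 111 CPM (median 91.8) in the uninjured samples and 23.6, 31.4 and 18.8 CPM in injured 1, injured 2 and injured 3/4. The highest injured sample was far under the lowest uninjured sample (log2 fold change -1.92, SE 0.20; quasi-likelihood test of edgeR, Benjamini-Hochberg adjusted p = 1.13e-05). Grik5, whose product GluK5 needs a partner subunit such as GluK1 or GluK2, measured 47.4 to 55.5 CPM (median 50.2) in the uninjured samples and 32.0, 31.4 and 29.8 CPM in injured 1, injured 2 and injured 3/4. Both groups were narrow and did not overlap (log2 fold change -0.70, SE 0.11; quasi-likelihood test of edgeR, Benjamini-Hochberg adjusted p = 3.48e-04). Grik2, the GluK2 gene and the most abundant of the class by CPM, measured 118 to 200.3 CPM (median 157) in the uninjured samples and 93.7, 107 and 115 CPM in injured 1, injured 2 and injured 3/4. The groups came close, at 118 in uninjured 6 and 115 in injured 3/4, with a log2 fold change of -0.57 (SE 0.18; quasi-likelihood test of edgeR, Benjamini-Hochberg adjusted p = 0.0195). Its call was lost in 9 of 23 other settings, and in 1 of these, cells with 3 to 5% Malat1, its sign turned.

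Leaving out injured 1, injured 2, uninjured pair 1/2 or uninjured pair 3/4 gave Grik2 a log2 fold change of -0.49, -0.58, -0.56 and -0.40. The adjusted p was 0.0977, 0.0616, 0.0611 and 0.0612 (quasi-likelihood test of edgeR, Benjamini-Hochberg adjustment). Leaving out both injured 1 and injured 2 left 1 injured sample, at a log2 fold change of -0.44. Grik3, the GluK3 gene, measured 19.9 to 40.4 CPM (median 28.9) in the uninjured samples and 48.9, 49.6 and 42.2 CPM in injured 1, injured 2 and injured 3/4. Injured samples were above all uninjured samples, but uninjured 1 and injured 3/4 were close, and the rise was a log2 fold change of 0.63 (SE 0.21; quasi-likelihood test of edgeR, Benjamini-Hochberg adjusted p = 0.0297). That call was lost in 10 of 23 other settings. Without injured 1, injured 2 or uninjured 2, the log2 fold change of Grik3 was 0.61, 0.60 and 0.60. The adjusted p was 0.0925, 0.0938 and 0.0522 (quasi-likelihood test of edgeR, Benjamini-Hochberg adjustment). Without both injured 1 and injured 2, which left 1 injured sample, the log2 fold change was 0.49.

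All 5 NMDA receptor genes that were tested fell. Grin1 encodes GluN1, the subunit that every NMDA receptor contains, and measured 116 to 144 CPM (median 121) in the uninjured samples and 66.0, 65.8 and 45.9 CPM in injured 1, injured 2 and injured 3/4. No injured sample reached the uninjured range (log2 fold change -1.09, SE 0.15; quasi-likelihood test of edgeR, Benjamini-Hochberg adjusted p = 1.16e-04). Grin2d, one of the glutamate-binding subunit genes, measured 21.3 to 28.3 CPM (median 24.3) in the uninjured samples and 8.75, 7.41 and 5.64 CPM in injured 1, injured 2 and injured 3/4. It had the largest fall of the class, with groups far apart (log2 fold change -1.76, SE 0.17; quasi-likelihood test of edgeR, Benjamini-Hochberg adjusted p = 9.12e-06). Grin2a, a glutamate-binding subunit gene of mature synapses, measured 152 to 319.9 CPM (median 232) in the uninjured samples and 96.5, 91.4 and 84.6 CPM in injured 1, injured 2 and injured 3/4. The injured samples were tight while the uninjured samples differed among themselves, uninjured 2 being the lowest (log2 fold change -1.37, SE 0.25; quasi-likelihood test of edgeR, Benjamini-Hochberg adjusted p = 8.19e-04).

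Grin2b, which encodes the other main glutamate-binding subunit of the forebrain and retina, measured 130.5 to 327 CPM (median 254) in the uninjured samples and 130.1, 122 and 97.8 CPM in injured 1, injured 2 and injured 3/4. The groups nearly touched, since uninjured 5 and uninjured 6 (145 and 130.5 CPM) were close to injured 1. The fold change was -0.98 (SE 0.28; quasi-likelihood test of edgeR, Benjamini-Hochberg adjusted p = 0.0147). Against uninjured pairs 1/2, 3/4 and 5/6 the log2 ratio was -1.35, -1.12 and -0.24. The call was lost without uninjured 1 and 2 or injured 3/4, and with similar libraries summed. Its log2 fold change there was -0.74, -0.84 and -1.04 (quasi-likelihood test of edgeR, Benjamini-Hochberg adjusted p = 0.0584, 0.0815 and 0.0504). Without injured 1 and 2, which left 1 injured sample, the log2 fold change was -1.22. Grin3a, whose product binds glycine and lowers the calcium flow of the channel, measured 42.8 to 95.7 CPM (median 79.3) in the uninjured samples and 24.3, 34.4 and 21.4 CPM in injured 1, injured 2 and injured 3/4. Its groups did not overlap (log2 fold change -1.47, SE 0.27; quasi-likelihood test of edgeR, Benjamini-Hochberg adjusted p = 9.99e-04), but among cells with 3 to 5% Malat1 it did not pass (log2 fold change -0.74, adjusted p = 0.0664).

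The remaining 3 members of the NMDA class had too few counts for a test. Grin2c, a glutamate-binding subunit gene known from the cerebellum, had 40 UMIs in all, and Grin3b, the second glycine-binding subunit gene of the Grin3 pair, had 28. Grin1os is matched by its symbol and is no receptor subunit: it is a noncoding RNA on the strand opposite to Grin1, within it. It had 119 UMIs, with 1.01, 1.40, 2.33, 3.00, 0 and 0 CPM in uninjured 1 to 6 and 0, 0.225 and 0.403 CPM in injured 1, injured 2 and injured 3/4. Its UMIs came mostly from uninjured 3 and uninjured 4, where Grin1 was highest as well.

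Of the 7 metabotropic glutamate receptor genes 5 fell, and the most abundant, Grm7, did not pass. Grm5, a receptor that acts through Gq and calcium stores, measured 62.7 to 123 CPM (median 89.3) in the uninjured samples and 20.8, 19.8 and 14.8 CPM in injured 1, injured 2 and injured 3/4. Every injured sample was under the lowest uninjured sample, uninjured 1, by a wide margin (log2 fold change -2.32, SE 0.25; quasi-likelihood test of edgeR, Benjamini-Hochberg adjusted p = 1.62e-05). Grm3, a receptor that lowers cAMP through Gi, measured 9.74 to 24.7 CPM (median 18.5) in the uninjured samples and 5.603, 8.08 and 4.30 CPM in injured 1, injured 2 and injured 3/4. Uninjured 5 and uninjured 6 were nearest to the injured samples (log2 fold change -1.63, SE 0.36; quasi-likelihood test of edgeR, Benjamini-Hochberg adjusted p = 0.00344), and in cells with 3 to 5% Malat1 the call was lost (log2 fold change -0.62, adjusted p = 0.213). Grm2, its closest relative, had 103 UMIs and did not pass (log2 fold change -1.21, SE 0.51, quasi-likelihood test of edgeR, Benjamini-Hochberg adjusted p = 0.0735). With the same test it passed as lower without uninjured 5 and uninjured 6 (log2 fold change -1.38, adjusted p = 0.0230). Grm2 is given here because it completes the class and was chosen after its values were seen.

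Presynaptic receptors of the class that lower transmitter release include the products of Grm4, Grm7 and Grm8. Grm4 measured 14.0 to 22.0 CPM (median 18.6) in the uninjured samples and 9.46, 5.84 and 7.25 CPM in injured 1, injured 2 and injured 3/4. The groups were separate (log2 fold change -1.29, SE 0.21; quasi-likelihood test of edgeR, Benjamini-Hochberg adjusted p = 4.03e-04). Grm8 measured 133 to 244 CPM (median 163) in the uninjured samples and 122, 122 and 101 CPM in injured 1, injured 2 and injured 3/4. The highest injured and the lowest uninjured samples were near each other (log2 fold change -0.65, SE 0.20, quasi-likelihood test of edgeR, Benjamini-Hochberg adjusted p = 0.0191). With the same test the call was lost without injured 1 (log2 fold change -0.69, adjusted p = 0.0501) or injured 3/4 (-0.54, 0.106). It was also lost with similar libraries summed (-0.71, 0.0801) and in cells with 3 to 5% Malat1 (log2 fold change -0.32, adjusted p = 0.325). Without injured 1 and 2, which left 1 injured sample, the log2 fold change was -0.83. Grm7 measured 364 to 660.0 CPM (median 468) in the uninjured samples and 807, 749 and 535 CPM in injured 1, injured 2 and injured 3/4. Injured 1 and injured 2 were above all uninjured samples but injured 3/4 was within their range, and Grm7 did not pass (log2 fold change 0.49, SE 0.22; quasi-likelihood test of edgeR, Benjamini-Hochberg adjusted p = 0.0867). With uninjured 4 or with uninjured 3 and uninjured 4 left out, Grm7 passed as higher (adjusted p = 0.0370 and 0.0112 with the quasi-likelihood test of edgeR and Benjamini-Hochberg adjustment), as it did in all samples with DESeq2 in place of edgeR (adjusted p = 0.0476). Grm6, the receptor of ON bipolar cells, had 8 UMIs in all, of which 6 were in uninjured 5.

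**Figure D2:**
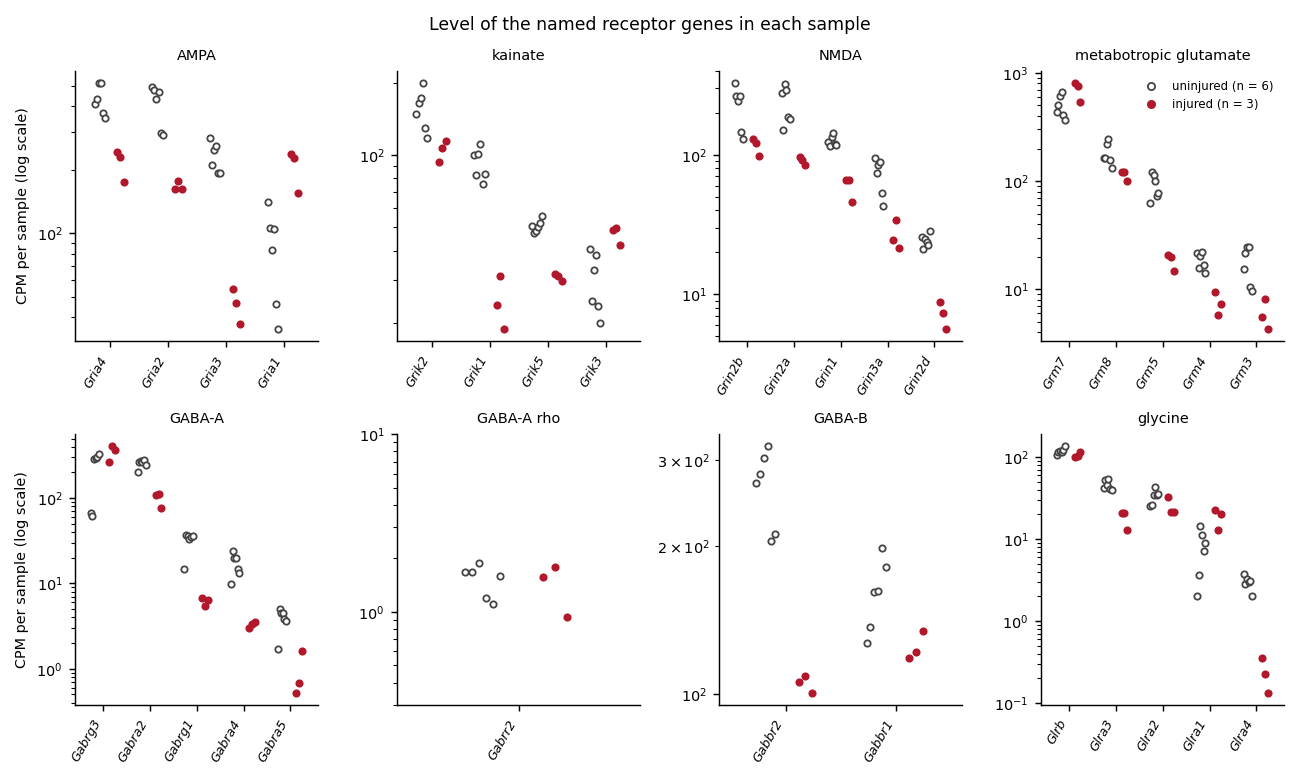
CPM of the 31 named receptor genes in each sample, on a log scale, by receptor class. Open circles are the 6 uninjured samples and filled circles the 3 injured samples; Gria3 was at 193 CPM or more in every uninjured sample and at 54.6 CPM or less in every injured sample.

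Of the 12 GABA-A receptor genes, 8 fell, 4 did not pass and 0 rose. The receptor is a ring of alpha, beta and usually gamma subunits. The alpha subunit genes Gabra2, Gabra3, Gabra4 and Gabra5 fell. Gabra2 measured 201 to 278 CPM (median 265) in the uninjured samples and 108, 110.5 and 76.5 CPM in injured 1, injured 2 and injured 3/4. Injured samples held less than the lowest uninjured sample, uninjured 1 (log2 fold change -1.37, SE 0.17; quasi-likelihood test of edgeR, Benjamini-Hochberg adjusted p = 4.90e-05). Gabra4, an alpha subunit found in receptors outside synapses, measured 9.77 to 23.8 CPM (median 17.4) in the uninjured samples and 2.98, 3.37 and 3.49 CPM in injured 1, injured 2 and injured 3/4. The injured samples were nearly equal (log2 fold change -2.38, SE 0.29; quasi-likelihood test of edgeR, Benjamini-Hochberg adjusted p = 5.19e-05). Gabra5 measured 1.68 to 5.05 CPM (median 4.17) in the uninjured samples and 0.525, 0.674 and 1.61 CPM in injured 1, injured 2 and injured 3/4. The highest injured sample, injured 3/4, was just under uninjured 1 (log2 fold change -1.99, SE 0.42, quasi-likelihood test of edgeR, Benjamini-Hochberg adjusted p = 0.00248). With injured 1 and injured 2 left out, injured 3/4 was the only injured sample, and the log2 fold change was -1.28.

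Gabrg3, a gamma subunit gene, measured 61.7 to 333 CPM (median 292) in the uninjured samples and 266, 404 and 365 CPM in injured 1, injured 2 and injured 3/4. Uninjured 1 and uninjured 2 stood apart at 66.4 and 61.7 CPM, while uninjured 3 to 6 held 288 to 333 CPM. Injured 1 lay under uninjured 3 to 6 and the other injured samples above them, and Gabrg3 did not pass (log2 fold change 0.61, SE 0.49; quasi-likelihood test of edgeR, Benjamini-Hochberg adjusted p = 0.332). With library number as a replicate block over libraries 1 to 4, Gabrg3 passed as higher (log2 fold change 1.26, quasi-likelihood test of edgeR, Benjamini-Hochberg adjusted p = 0.0329). In the same libraries without the block it did not pass. The log2 ratio of the injured mean was 2.43 against pair 1/2, 0.24 against pair 3/4 and 0.12 against pair 5/6. Gabrg1, another gamma subunit gene, measured 14.8 to 36.7 CPM (median 35.4) in the uninjured samples and 6.83, 5.39 and 6.45 CPM in injured 1, injured 2 and injured 3/4. Uninjured 1 was well below the other uninjured samples and still above every injured sample (log2 fold change -2.36, SE 0.28; quasi-likelihood test of edgeR, Benjamini-Hochberg adjusted p = 3.41e-05).

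Gabra3, Gabrb1, Gabrb2 and Gabrd, outside the rule for named genes, were looked up after the values of the class had been seen. Gabra3 had a log2 fold change of -1.31 (SE 0.22; quasi-likelihood test of edgeR, Benjamini-Hochberg adjusted p = 4.87e-04), lost in cells with 3 to 5% Malat1 (log2 fold change -0.09, adjusted p = 0.888). Gabrb2 had a log2 fold change of -1.08 (SE 0.34, quasi-likelihood test of edgeR, Benjamini-Hochberg adjusted p = 0.0229). With the same test this call was lost without injured 1, injured 2, injured 3/4 or uninjured pair 1/2. There the log2 fold change was -1.18, -1.14, -0.91 and -0.71 (quasi-likelihood test of edgeR, adjusted p = 0.0533, 0.0612, 0.113 and 0.0554). Without injured pair 1/2, which left 1 injured sample, it was -1.42. Gabrb1 did not pass, at a log2 fold change of -0.62 (SE 0.24; quasi-likelihood test of edgeR, Benjamini-Hochberg adjusted p = 0.0551), but it passed as lower in 10 of 23 other settings, among them the quasi-likelihood test without uninjured pair 5/6 (adjusted p = 0.00112), in cells with 3 to 5% Malat1 (0.00533), with library totals alone (0.0441) and without the filter (0.0487), and DESeq2 (0.0412). Gabrd, the delta subunit gene, had 171 UMIs, of which 93 were in uninjured 4, the largest library. Its level there was 3.83 CPM, close to the 3.86 CPM of uninjured 5. Gabrd did not pass (log2 fold change -0.74, SE 0.64, quasi-likelihood test of edgeR, Benjamini-Hochberg adjusted p = 0.378).

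Several GABA-A genes lie side by side in the genome. On chromosome 5, Gabrg1, Gabra2 and Gabra4 lie on the reverse strand and Gabrb1 on the forward strand, and the annotated genes of Gabra4 and Gabrb1 overlap by 267 bases at their 5′ ends. In this cluster Gabrg1, Gabra2 and Gabra4 fell and Gabrb1 did not pass. On chromosome 7, Gabrg3 and Gabra5 are neighbours on the reverse strand, where Gabra5 fell and Gabrg3 did not pass. On chromosome 11, Gabrb2, which fell, lies next to Gabra6, which had 0 UMIs. Whether neighbours differ in their fold changes was not tested. The 5′ window of Gabra4, which lies inside the annotated Gabrb1 gene, is shown as an example of members whose annotations overlap (chr5:71815673-71815972, mm39, reverse strand, with capitals marking 2 matches to GGGCGG, read here as CCGCCC on the other strand).
Gabra4: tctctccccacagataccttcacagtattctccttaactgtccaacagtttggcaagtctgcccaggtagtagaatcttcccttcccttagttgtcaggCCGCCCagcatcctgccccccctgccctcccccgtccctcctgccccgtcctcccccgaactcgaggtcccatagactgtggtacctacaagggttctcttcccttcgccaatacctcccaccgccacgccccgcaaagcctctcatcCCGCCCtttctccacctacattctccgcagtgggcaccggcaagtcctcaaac

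The GABA-A receptors of the Gabrr group, which form slow chloride channels of bipolar cells, were nearly absent from the counts. Gabrr2, the only gene of the group with 20 UMIs or more, measured 1.10 to 1.88 CPM (median 1.63) in the uninjured samples and 1.58, 1.80 and 0.940 CPM in injured 1, injured 2 and injured 3/4. The ranges overlapped, the filter on low counts left it out of the test, and the ratio of summed rates, uninjured over injured, was 1.06 (95% counting interval 0.663 to 1.75). Gabrr1 had 16 UMIs and Gabrr3 4.

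Both GABA-B receptor subunits are needed for a working receptor, and of these Gabbr2 passed the test. Gabbr2, whose product couples to the G protein, measured 205 to 319.5 CPM (median 275) in the uninjured samples and 106, 109 and 101 CPM in injured 1, injured 2 and injured 3/4. All injured samples were under the lowest uninjured samples, uninjured 5 and uninjured 6 (log2 fold change -1.34, SE 0.18; quasi-likelihood test of edgeR, Benjamini-Hochberg adjusted p = 8.08e-05). Gabbr1, whose product binds GABA, measured 127 to 198 CPM (median 162) in the uninjured samples and 118, 121 and 134 CPM in injured 1, injured 2 and injured 3/4. Injured 3/4 lay within the uninjured range, and Gabbr1 did not pass (log2 fold change -0.37, SE 0.16; quasi-likelihood test of edgeR, Benjamini-Hochberg adjusted p = 0.0749). Whether the fold changes of Gabbr1 and Gabbr2 differ was not tested. Gabbr1 passed as lower in 6 of 23 other settings: with the quasi-likelihood test of edgeR and Benjamini-Hochberg adjustment without uninjured 1 (adjusted p = 0.0459), without uninjured 1 and uninjured 2 (0.0241), with library totals alone (0.0317), with 10 libraries as separate samples (0.0475) and with library number as a replicate block (0.0495), and with DESeq2 (0.0496).

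Glycine receptors are rings of alpha subunits with the beta subunit Glrb, which ties them to gephyrin at synapses. Glrb, the most abundant of the class by CPM, measured 105 to 135 CPM (median 117) in the uninjured samples and 100.3, 101.95 and 115 CPM in injured 1, injured 2 and injured 3/4. The ranges overlapped and Glrb did not pass (log2 fold change -0.16, SE 0.12; quasi-likelihood test of edgeR, Benjamini-Hochberg adjusted p = 0.293). Among the alpha subunits, Glra3 measured 39.6 to 54.4 CPM (median 43.8) in the uninjured samples and 21.0, 20.9 and 12.9 CPM in injured 1, injured 2 and injured 3/4. Its groups were well apart (log2 fold change -1.34, SE 0.19; quasi-likelihood test of edgeR, Benjamini-Hochberg adjusted p = 1.50e-04). Glra2 measured 25.6 to 43.8 CPM (median 34.8) in the uninjured samples and 32.7, 21.1 and 21.6 CPM in injured 1, injured 2 and injured 3/4. Injured 1 lay within the uninjured range and the other injured samples below it, and Glra2 did not pass (log2 fold change -0.42, SE 0.20; quasi-likelihood test of edgeR, Benjamini-Hochberg adjusted p = 0.115), though it passed as lower without injured 1 or without uninjured pair 1/2 (adjusted p = 0.0406 and 0.0457).

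Glra1, the alpha subunit gene of spinal glycine receptors, measured 2.02 to 14.6 CPM (median 8.003) in the uninjured samples and 22.8, 13.0 and 20.01 CPM in injured 1, injured 2 and injured 3/4. Injured 2 lay within the uninjured range, under uninjured 3, and uninjured 1 and uninjured 2 were the lowest. The rise only just passed (log2 fold change 1.12, SE 0.40; quasi-likelihood test of edgeR, Benjamini-Hochberg adjusted p = 0.0414), and it was lost in 11 of 23 other settings. Without injured 1, injured 3/4, uninjured 2, uninjured 5 or uninjured pair 5/6 the log2 fold change was 0.97, 1.10, 1.01, 1.06 and 0.99. The adjusted p was 0.151, 0.116, 0.0606, 0.0606 and 0.121 with the quasi-likelihood test of edgeR and Benjamini-Hochberg adjustment. Without injured pair 1/2, which left 1 injured sample, the log2 fold change was 1.25. Against uninjured pairs 1/2, 3/4 and 5/6 the log2 ratio of Glra1 was 2.71, 0.53 and 1.22.

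Glra4, a rare alpha subunit gene, measured 2.04 to 3.71 CPM (median 3.04) in the uninjured samples and 0.350, 0.225 and 0.134 CPM in injured 1, injured 2 and injured 3/4. It had 162 UMIs over the uninjured samples and 2, 1 and 1 UMIs in injured 1, injured 2 and injured 3/4. The ratio of summed rates, uninjured over injured, was 13.2 (95% counting interval 5.06 to 49.1, which covers counting error alone), and the test gave a log2 fold change of -3.62 (SE 0.43; quasi-likelihood test of edgeR, Benjamini-Hochberg adjusted p = 3.44e-05). All of Glra4 lies within the noncoding gene BC065397 on the opposite strand, which measured 4.60 to 14.5 CPM (median 10.0) in the uninjured samples and 13.3, 13.7 and 14.8 CPM in injured 1, injured 2 and injured 3/4 and did not pass (log2 fold change 0.55, SE 0.33; quasi-likelihood test of edgeR, Benjamini-Hochberg adjusted p = 0.195).

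Other members overlap genes with at least 10% as many UMIs as their own, and none of these partners passed the test: Commd8 and Gabrb1, Kdelr1 and Gm45441 and Grin2d, Zfp574 and Grik5, Tmem259 and Grin3b, and Gm9962 and Gabra5. Kdelr1 had 4535 UMIs beside 1473 of Grin2d and overlaps it by 5607 bases. Its level was 42.9 to 67.8 CPM (median 53.0) in the uninjured samples and 61.1, 66.9 and 79.5 CPM in injured 1, injured 2 and injured 3/4, with overlapping ranges, while Grin2d fell.

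The summed level of each class showed which classes were lower as a whole, counted in UMIs of 3′ ends and not per length of transcript. AMPA receptor genes summed to 872 to 1348 CPM (median 1251) in the uninjured samples and 696, 680.0 and 529 CPM in injured 1, injured 2 and injured 3/4. NMDA receptor genes summed to 502 to 849 CPM (median 720.0) in the uninjured samples and 327, 322 and 256 CPM in injured 1, injured 2 and injured 3/4. GABA-B receptor genes summed to 393 to 481 CPM (median 411) in the uninjured samples and 224, 230.2 and 235 CPM in injured 1, injured 2 and injured 3/4. In these classes, and in the kainate, GABA-A and glycine classes, every injured sample was below every uninjured sample. Kainate receptor genes summed to 296 to 439 CPM (median 373) in the uninjured samples and 251, 271 and 248 CPM in injured 1, injured 2 and injured 3/4. GABA-A receptor genes summed to 1421 to 1702 CPM (median 1544) in the uninjured samples and 1099, 1213 and 1017 CPM in injured 1, injured 2 and injured 3/4. Glycine receptor genes summed to 179 to 227 CPM (median 213) in the uninjured samples and 177, 157 and 169.6 CPM in injured 1, injured 2 and injured 3/4, with injured 1 just under uninjured 1. Only the metabotropic glutamate class (and the sparse Gabrr group) overlapped between groups, at 739.5 to 1259 CPM (median 970.1) in the uninjured samples and 1085, 992 and 753 CPM in injured 1, injured 2 and injured 3/4.

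All 44 members together summed to 4445 to 6274 CPM (median 5499) in the uninjured samples and 3860.5, 3867 and 3208 CPM in injured 1, injured 2 and injured 3/4. The ratio of summed AMPA, kainate and NMDA UMIs to summed GABA-A, Gabrr and glycine UMIs was 1.016 to 1.46 (median 1.304) in the uninjured samples and 0.997, 0.928 and 0.871 in injured 1, injured 2 and injured 3/4. All injured samples were lower, but uninjured 5 and uninjured 6 (1.04 and 1.016) were close to injured 1.

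Within several classes the shares of some subunits differed between groups. In the NMDA class the shares of Grin1, Grin2a, Grin2b and Grin3a overlapped. Grin2d gave 2.91% to 5.64% in the uninjured samples and 2.68%, 2.30% and 2.18% in injured 1, injured 2 and injured 3/4. Gria1 made up 4.03% to 10.6% of AMPA receptor UMIs in the uninjured samples and 33.9%, 33.5% and 29.4% in injured 1, injured 2 and injured 3/4, and Gria3 made up 17.2% to 22.1% in the uninjured samples and 7.85%, 6.87% and 6.98% in injured 1, injured 2 and injured 3/4. For both the groups were far apart compared with the spread among uninjured samples, in opposite directions. Gria2 contributed 32.8% to 38.8% in the uninjured samples and 23.4%, 26.1% and 30.6% in injured 1, injured 2 and injured 3/4, with no overlap, and Gria4 31.0% to 40.9% in the uninjured samples and 34.9%, 33.6% and 33.0% in injured 1, injured 2 and injured 3/4, with overlap. In the kainate class the share of Grik1 was 22.5% to 28.3% in the uninjured samples and 9.41%, 11.6% and 7.60% in injured 1, injured 2 and injured 3/4. Grik3 gave 6.72% to 10.6% in the uninjured samples and 19.5%, 18.3% and 17.0% in injured 1, injured 2 and injured 3/4, so the injured samples held the larger share of Grik3 and the smaller share of Grik1 without overlap.

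Grm7 accounted for 47.9% to 52.4% of metabotropic glutamate receptor UMIs in the uninjured samples and 74.4%, 75.5% and 71.1% in injured 1, injured 2 and injured 3/4. All injured samples were above all uninjured samples. Gabbr1 made up 32.0% to 49.1% of GABA-B receptor UMIs in the uninjured samples and 52.8%, 52.8% and 57.2% in injured 1, injured 2 and injured 3/4, where uninjured 5 and uninjured 6 came close to the injured samples. Among glycine receptor UMIs Glra3 had 17.97% to 26.7% in the uninjured samples and 11.9%, 13.3% and 7.60% in injured 1, injured 2 and injured 3/4, and Glra1 had 1.13% to 6.70% in the uninjured samples and 12.8%, 8.29% and 11.8% in injured 1, injured 2 and injured 3/4.

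**Figure D3:**
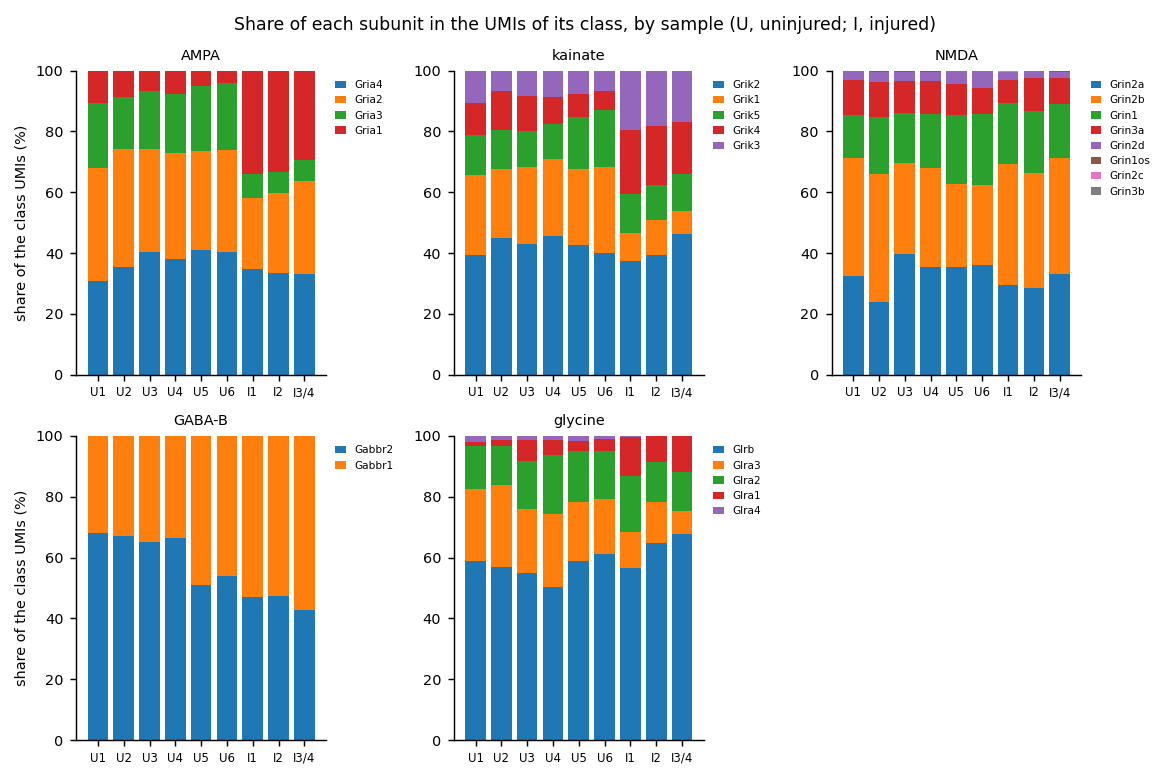
Share of each subunit in the summed UMIs of its class (percent, vertical axis) in uninjured samples 1 to 6 (U1 to U6) and in injured 1, injured 2 and injured 3/4 (I1, I2, I3/4), for AMPA, kainate, NMDA, GABA-B and glycine receptors. Gria1 took 29.4% or more of AMPA receptor UMIs in the injured samples and at most 10.6% in the uninjured samples.

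The share of cells with a UMI was compared after each cell was thinned to 8000 UMIs, since injured cells were shallower. Thinning left out 29 of 1683 uninjured cells (1.72%), and 32 of 338 (9.47%), 22 of 273 (8.06%), 67 of 527 (12.7%) and 112 of 471 (23.8%) cells of injured 1 to 4. At this depth 25 of the 44 members had a UMI in fewer cells in every injured sample than in any uninjured sample, 1 member (Gria1) in more cells, and 18 overlapped, beside 15.2% in fewer and 12.6% in more of all 18259 genes with at least 20 UMIs. At the cells' own depth the counts were 29, 0 and 15, beside 45.9% in fewer and 5.34% in more of those genes. Gria3 was found in 62.7% to 73.9% of cells in the uninjured samples and 17.0%, 19.9% and 17.5% in injured 1, injured 2 and injured 3/4. Gria2 was found in 82.5% to 98.0% of cells in the uninjured samples and 62.1%, 65.3% and 60.6% in injured 1, injured 2 and injured 3/4. Gria1 was found in 20% to 40.2% of cells in the uninjured samples and 56.2%, 50.6% and 46.5% in injured 1, injured 2 and injured 3/4, so Gria1 was found in more injured cells while the other AMPA subunits were found in fewer. At the cells' own depth Gria1 was found in 38.3% to 61.6% of uninjured and 55.0% to 63.0% of injured cells, which overlap.

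Grm7, which did not pass as a level, was found in 83.0% to 92.5% of cells in the uninjured samples and 84.6%, 81.7% and 73.6% in injured 1, injured 2 and injured 3/4, with injured 2 and injured 3/4 under the uninjured range. Gabrg3 was found in 14.7% to 53.0% of cells in the uninjured samples and 22.5%, 31.1% and 32.2% in injured 1, injured 2 and injured 3/4, with uninjured 1 and uninjured 2 the lowest, as in CPM. Detection of Grm5 was 17.9% to 39.7% in the uninjured samples and 7.52%, 8.76% and 6.93% in injured 1, injured 2 and injured 3/4. Detection of Grik1 was 25.5% to 43.0% in the uninjured samples and 10.46%, 12.4% and 10.2% in injured 1, injured 2 and injured 3/4. Both were detected in fewer cells in all injured samples. Glra1, which had passed as higher in level, was found in 1.96% to 6.00% of cells in the uninjured samples and 7.19%, 3.19% and 5.88% in injured 1, injured 2 and injured 3/4, and the groups overlapped.

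As a background for free RNA, the bipolar gene Trpm1 was found in at most 1.00% of thinned cells of any sample and the microglial gene C1qa in at most 0.5%. The amacrine gene Gad1 was found in 4.00% to 16.5% of uninjured and 3.44% to 6.86% of injured cells. Gabrr2, Grin2c, Grin3b, Grm2 and Gabrd were found in at most 2.17% of cells of any sample, under the lowest share of Gad1, and are not read as expressed by RGCs. Grin1os and Glra4 reached 3.33% and 2.94%, also under the lowest share of Gad1. Gabra5 was under Gad1 in all 9 samples, and Glra1 and Gabra4 in 6 each (Glra1 in all but uninjured 6, injured 1 and injured 3/4), so whether the changes of these genes lie in RGCs cannot be told from these shares. A median of 15 to 18 members had a UMI in a thinned uninjured cell, against 10, 11 and 10 in injured 1, injured 2 and injured 3/4, and 0% of cells lacked every member. Cells with any AMPA receptor UMI made up 98.9% to 100% of all cells in the uninjured samples and 89.5%, 90.8% and 87.6% in injured 1, injured 2 and injured 3/4. Cells with any NMDA receptor UMI made up 94.0% to 98.4% of all cells in the uninjured samples and 79.1%, 80.5% and 71.4% in injured 1, injured 2 and injured 3/4, and cells with any GABA-A receptor UMI 99.8% to 100% of all cells in the uninjured samples and 99.7%, 98.8% and 97.9% in injured 1, injured 2 and injured 3/4.

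**Figure D4:**
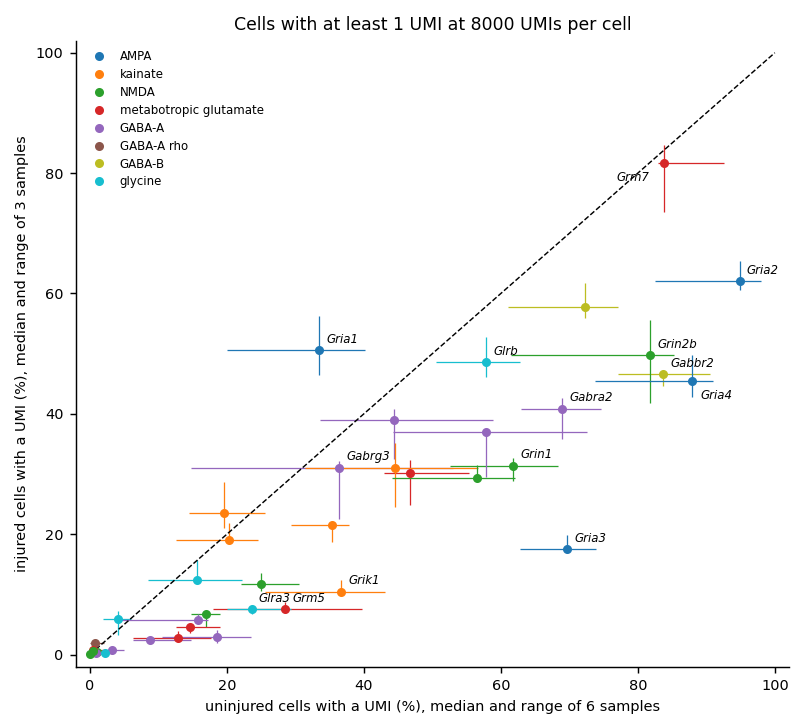
Percent of cells with at least 1 UMI of 40 members after thinning to 8000 UMIs per cell, uninjured (horizontal axis, median and range of 6 samples) against injured (vertical axis, median and range of 3 samples), coloured by class, with the line of equal shares dashed. Gria1 lies above the line (median 33.5% and 50.6%) and Gria3 far below it (69.7% and 17.5%).

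The share of cells with a class marker differed between groups for markers such as Cartpt and Neurod2. Levels were therefore summed within cells holding at least 2 UMIs of a class marker, in samples with 10 or more such cells and with no test. This cutoff was applied at each cell's own depth, which was lower in injured libraries, so the shares do not show that the mix of classes changed. A cell can belong to more than 1 set, and the sets are named by marker, not taken as pure classes. Eomes cells reached this number in 2 injured samples, Opn4 cells in 3 uninjured samples and Tfap2d cells in 5 uninjured samples. Cells with Cartpt, a marker of direction-selective RGCs, made up 56.2% to 69.0% of uninjured and 2.97% to 6.96% of injured libraries, and markers can themselves change after injury. Cells are counted below in the samples used, with a barcode found in both injured 3 and injured 4 counted once, and shares of all genes take those with at least 20 UMIs in the same cells. Medians are over the same genes as the shares, with a gene at 0 in the injured samples ranked lowest and a gene at 0 in the uninjured samples ranked highest. Counts of passed members that kept their direction have no share of all passed genes beside them. These cells are also part of the whole libraries that gave the calls, so those counts are a description and not separate support. Among Foxp2 cells (349 uninjured and 129 injured), 32 of 40 members compared were lower in the injured group, with a median log2 ratio of -1.16, beside 55.8% of all genes (median -0.11), and all 29 members compared that had passed in whole libraries kept their direction. Among Tfap2d cells (327 and 109), 36 of 40 were lower (median -1.41) beside 55.9% of all genes (median -0.10), and all 30 such members kept their direction. Among Eomes cells (122 and 40), 28 of 36 were lower (median -0.68) beside 54.8% of all genes (median -0.07), with Grin3a and Grik2 the other way of 28 compared. Opn4 cells, the melanopsin RGCs (38 and 65), gave 23 of 35 lower (median -0.60) beside 53.2% of all genes (median -0.04), and 24 of 27 such members kept their direction, with Gabrg1 and Gabra2 among those that did not. In Cartpt cells (1072 and 55), 33 of 42 were lower with a median of -0.42, beside 53.8% of all genes (median -0.07), and Grik3, Gabra5, Glra3 and Glra1 went the other way of 30. Spp1, Tbr1 and Neurod2 cells were too few for a comparison.

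Gria1 was higher in the injured group within all 5 of these cell sets, at log2 ratios of 1.01 (Cartpt), 1.20 (Eomes), 0.84 (Foxp2), 0.45 (Opn4) and 1.46 (Tfap2d). Per-sample values did not overlap, in the samples with enough cells, for Eomes cells (39.6 to 172 CPM in uninjured and 217 to 257 CPM in injured samples) and Tfap2d cells (17.8 to 42.6 and 76.1 to 114 CPM). They overlapped in Foxp2 cells, where Gria1 was most abundant (51.2 to 766 and 387 to 641 CPM), in Cartpt cells (31.0 to 117 and 108 to 192 CPM) and in Opn4 cells (59.5 to 221 and 157 to 329 CPM). Gria3 was lower in all 5, with log2 ratios of -1.44 (Cartpt), -4.36 (Eomes), -2.60 (Foxp2), -0.67 (Opn4) and -2.43 (Tfap2d), and its per-sample values overlapped in Opn4 cells (31.6 to 46.3 CPM in uninjured and 5.64 to 50.6 CPM in injured samples). Grm5 was at 60.9 to 99.8 CPM in uninjured and 56.4 to 108 CPM in injured samples of Cartpt cells, a log2 ratio of -0.11, whereas in Tfap2d cells it was at 65.2 to 131 and 4.42 to 14.6 CPM, a log2 ratio of -3.21. Whether such ratios differ between the cell sets was not tested.

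Proteins that bind the receptors were followed through 5 lists. AMPA and kainate receptor auxiliary proteins had 18 genes tested, of which 10 fell and 2 rose, with a median log2 fold change of -0.89, beside 22.7% and 21.3% of all genes and their median of -0.03. Neto1, an auxiliary subunit of kainate receptors, measured 1.35 to 5.64 CPM (median 2.47) in the uninjured samples and 292, 247 and 204 CPM in injured 1, injured 2 and injured 3/4. It was low in every uninjured sample and far higher in every injured sample (log2 fold change 6.27, SE 0.30; quasi-likelihood test of edgeR, Benjamini-Hochberg adjusted p = 4.20e-08). Shisa9, an AMPA receptor auxiliary protein, measured 28.9 to 77.1 CPM (median 39.1) in the uninjured samples and 178, 159 and 121 CPM in injured 1, injured 2 and injured 3/4. All injured samples were higher (log2 fold change 1.70, SE 0.27; quasi-likelihood test of edgeR, Benjamini-Hochberg adjusted p = 3.81e-04). Cacng5, a relative of stargazin that binds AMPA receptors, measured 43.7 to 87.2 CPM (median 75.7) in the uninjured samples and 8.05, 9.43 and 9.40 CPM in injured 1, injured 2 and injured 3/4. The groups were far apart (log2 fold change -2.94, SE 0.25; quasi-likelihood test of edgeR, Benjamini-Hochberg adjusted p = 3.11e-06). Cacng4, of the same family, measured 53.2 to 70.4 CPM (median 56.8) in the uninjured samples and 12.1, 10.1 and 8.19 CPM in injured 1, injured 2 and injured 3/4. It fell without overlap (log2 fold change -2.53, SE 0.17; quasi-likelihood test of edgeR, Benjamini-Hochberg adjusted p = 4.37e-07).

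Excitatory postsynaptic scaffold genes had 21 tested of 22 listed (Grasp, an older symbol, was not found among the symbols), of which 10 fell and 5 rose, beside 22.7% and 21.3% of all genes, with a median log2 fold change of -0.18. Dlgap2, which links scaffold proteins of the postsynaptic density, measured 17.2 to 46.1 CPM (median 38.5) in the uninjured samples and 363, 326 and 238 CPM in injured 1, injured 2 and injured 3/4. Every injured sample was far above the uninjured range (log2 fold change 3.16, SE 0.30; quasi-likelihood test of edgeR, Benjamini-Hochberg adjusted p = 6.02e-06). Dlgap1, of the same family, measured 308 to 539 CPM (median 349) in the uninjured samples and 903, 831 and 689.6 CPM in injured 1, injured 2 and injured 3/4. It rose without overlap (log2 fold change 1.03, SE 0.20; quasi-likelihood test of edgeR, Benjamini-Hochberg adjusted p = 0.00160). Dlgap3, a further member, measured 68.4 to 95.3 CPM (median 74.2) in the uninjured samples and 29.9, 27.8 and 21.8 CPM in injured 1, injured 2 and injured 3/4. It fell without overlap (log2 fold change -1.53, SE 0.16; quasi-likelihood test of edgeR, Benjamini-Hochberg adjusted p = 1.22e-05), so members of this family moved in both directions. Camk2a, the alpha subunit of a calcium-dependent kinase of the postsynaptic density, measured 55.3 to 78.5 CPM (median 69.4) in the uninjured samples and 13.8, 22.7 and 15.6 CPM in injured 1, injured 2 and injured 3/4. All injured samples were lower (log2 fold change -1.96, SE 0.19; quasi-likelihood test of edgeR, Benjamini-Hochberg adjusted p = 9.14e-06).

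Inhibitory postsynaptic genes had 17 tested, of which 7 fell and 1 rose, beside 22.7% and 21.3% of all genes, with a median log2 fold change of -0.41. Slc12a5 encodes KCC2, the chloride exporter that keeps GABA-A and glycine currents inhibitory in mature neurons, and measured 281 to 692 CPM (median 343) in the uninjured samples and 43.6, 36.4 and 29.1 CPM in injured 1, injured 2 and injured 3/4. No injured sample came near the uninjured range (log2 fold change -3.56, SE 0.38; quasi-likelihood test of edgeR, Benjamini-Hochberg adjusted p = 1.59e-05). Slitrk3, an adhesion protein of inhibitory synapses, measured 7.54 to 14.3 CPM (median 11.8) in the uninjured samples and 2.10, 2.25 and 2.69 CPM in injured 1, injured 2 and injured 3/4. It fell without overlap (log2 fold change -2.30, SE 0.26; quasi-likelihood test of edgeR, Benjamini-Hochberg adjusted p = 2.53e-05). Hap1, which takes part in the transport of GABA-A receptors, measured 14.8 to 20.7 CPM (median 15.5) in the uninjured samples and 47.1, 38.8 and 25.8 CPM in injured 1, injured 2 and injured 3/4. It was the gene of the list that rose (log2 fold change 1.16, SE 0.18; quasi-likelihood test of edgeR, Benjamini-Hochberg adjusted p = 3.28e-04).

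All 5 GABA-B receptor auxiliary genes tested fell, beside 22.7% of all genes, with a median log2 fold change of -1.30; the sixth, Kctd12b, had too few counts. Pianp, which binds the extracellular part of the GABA-B receptor, measured 69.4 to 179 CPM (median 83.7) in the uninjured samples and 21.4, 27.8 and 32.8 CPM in injured 1, injured 2 and injured 3/4. The groups did not overlap (log2 fold change -1.98, SE 0.36; quasi-likelihood test of edgeR, Benjamini-Hochberg adjusted p = 8.70e-04). Kctd12, a cytoplasmic auxiliary subunit, measured 11.3 to 18.5 CPM (median 15.0) in the uninjured samples and 6.48, 3.59 and 5.51 CPM in injured 1, injured 2 and injured 3/4. Its injured samples were all lower (log2 fold change -1.53, SE 0.23; quasi-likelihood test of edgeR, Benjamini-Hochberg adjusted p = 2.25e-04).

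Of 6 other receptor-like genes, 4 were tested, 2 fell and 1 rose, beside 22.7% and 21.3% of all genes, with a median of -0.23, and Gabrp and Gabrq had too few counts. Gprc5b, an orphan G-protein-coupled receptor, measured 8.76 to 35.1 CPM (median 24.0) in the uninjured samples and 7.35, 7.41 and 8.33 CPM in injured 1, injured 2 and injured 3/4. The lowest uninjured sample was just above the injured samples (log2 fold change -1.65, SE 0.35; quasi-likelihood test of edgeR, Benjamini-Hochberg adjusted p = 0.00245). Grina, named for a glutamate-binding protein, measured 223 to 346 CPM (median 278) in the uninjured samples and 200.3, 215 and 134 CPM in injured 1, injured 2 and injured 3/4. It fell without overlap (log2 fold change -0.61, SE 0.20; quasi-likelihood test of edgeR, Benjamini-Hochberg adjusted p = 0.0263).

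**Figure D5:**
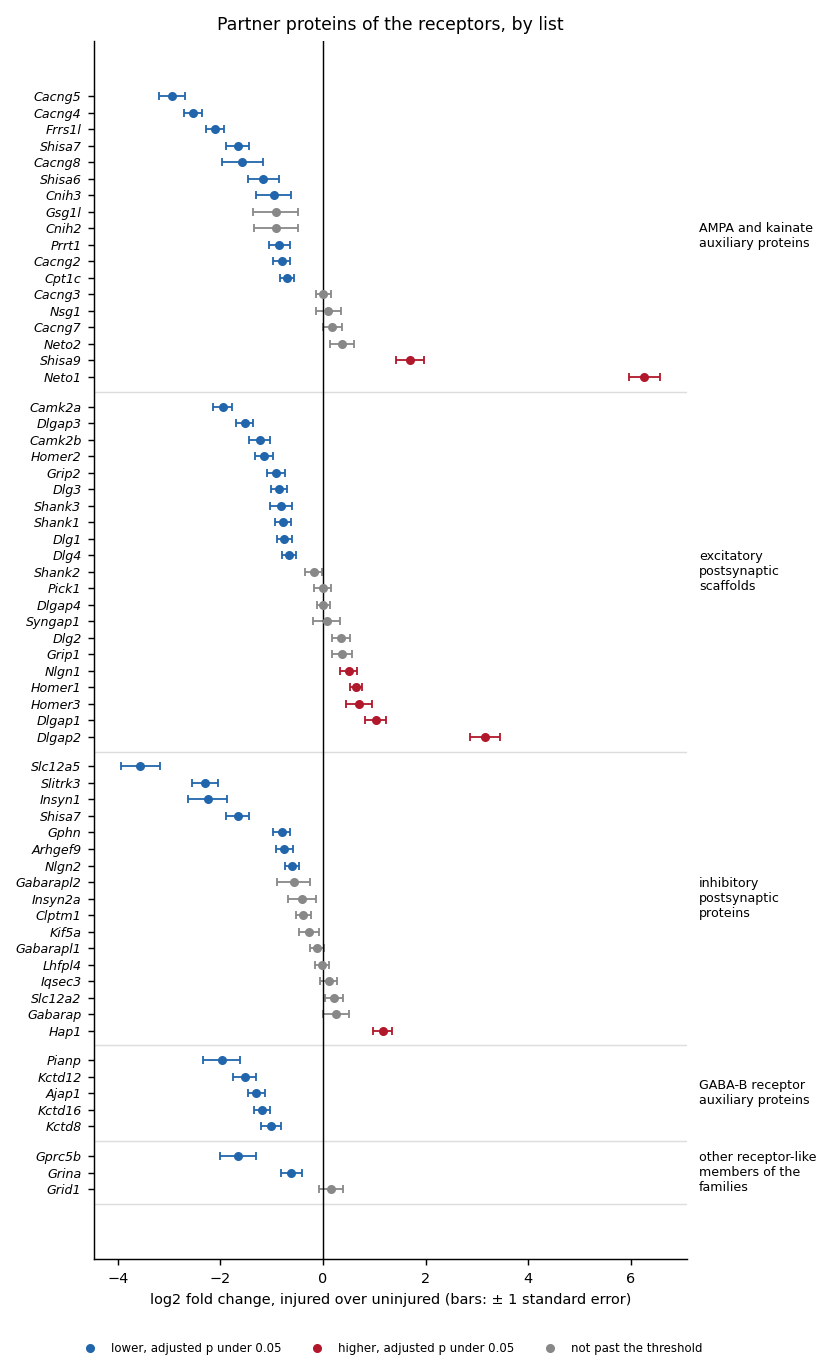
Log2 fold change, injured over uninjured, of partner genes tested in 5 lists, with bars of 1 standard error (6 uninjured and 3 injured samples); blue points fell, red points rose and grey points did not pass the test. Neto1 had the largest rise (6.27) and Slc12a5 the largest fall (-3.56) of the genes shown.

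Receptor genes share a few features that the symbol rule did not use. They are long: the median annotated span was 206 kb over the 40 tested members and 28.3 kb over 13944 tested genes with an annotated span. Across members the Spearman correlation of span with log2 fold change was 0.28, and across all tested genes 0.094, as a description over genes that share libraries. Of the 10 members over 400 kb, 5 fell and 0 rose (median log2 fold change -0.60), beside 31.2% and 21.9% of the 343 tested genes of that size. Whether intronic reads were counted is not stated, and long genes gather more of them. The 49 symbols lie on 13 chromosomes, with 8 of them on chromosome 11.

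In the windows from 250 bases before to 50 bases after the start of 43 protein-coding members, 4 motifs were searched on both strands. The GC box GGGCGG was found in 19 windows (44.2%) and in 42.9% of 21366 windows of protein-coding genes. TATAAA was found in 3 (Gria2, Grin3b and Glra2, 6.98% against 13.1%), and TGANTCA, the letters of AP-1 sites, in Grin3b alone (2.33% against 7.15%). TGACGTCA, the letters of the cAMP response element, was in 0 member windows and 2.46% of all windows. The median GC content was 57.7% in members and 54.3% in all windows. These matches describe letters in the windows and do not show binding.

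Depth and Malat1 moved with condition along with the falls described above. So did RGC markers, of which 6 of 9 fell and 1 rose, and 3 of 9 amacrine markers tested, which rose, C1ql2 among them. The other amacrine markers tested did not pass. The part of depth, Malat1 and these markers in each fall was not tested. In cells with fewer than 3 marker genes of any other retinal class (1269 uninjured cells, and 294, 223, 476 and 444 cells of injured 1 to 4), 25 members fell and 2 rose of 37 tested, beside 22.5% and 21.8% of all genes tested there. In cells thinned to 8000 UMIs 24 fell and 1 rose of 36 tested, beside 20.8% and 20% of all genes, and in cells with 3 to 5% of UMIs from Malat1 (495 uninjured cells, with 7 and 8 in uninjured 5 and uninjured 6, and 54, 49, 82 and 75 cells of injured 1 to 4) 20 fell and 2 rose of 36 tested, beside 15.6% and 17.3%. Among all their cells, injured 3 and injured 4 share 421 barcodes, so these counts can exceed the distinct cells. With injured 3/4, whose cells carry mCherry, left out, 24 fell and 2 rose, beside 17.4% and 17.9% of all genes, and with injured 1 and injured 2, the libraries with Xist, left out, 21 fell and 0 rose, beside 9.39% and 11.3% (quasi-likelihood test of edgeR, Benjamini-Hochberg adjustment).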

How the data were processed

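The UMI counts were made by the authors with Cell Ranger 7.0.1 on mm39, according to the submitters' processing notes (the paper's methods name v1.3 with default settings, and which holds was not settled), and were used as deposited. Cells had been selected as RGCs before deposit, and no cell was removed here except in the settings named. Counts were summed per library, and injured 3 and injured 4 were averaged. Genes were kept by filterByExpr, scaled by TMM and compared in edgeR 4.0.16 under R 4.3.3 (limma 3.58.1; DESeq2 1.42.0 as an alternative), with SE taken as the absolute log2 fold change over the square root of F. Cells were thinned without replacement to 8000 UMIs for shares of cells. Python 3.11.15 with numpy 2.4.6, scipy 1.17.1 and pandas 2.3.3 did the rest. Doublets were not called, but a setting without cells holding 3 or more markers of another class was run. Positions and windows came from GENCODE vM39. Values are given for the 3 most abundant members of each class, up to 3 with the largest changes that passed, and the 2 largest rises and falls of each partner list; some of these genes are not reported here. Members and lists were chosen with earlier results of these data known.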

Additional observations from a re-analysis of the deposited data

Results flagged for a closer look

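In the uninjured group, Gabrg1, a gamma subunit gene of the GABA-A receptor, stood at 14.8 CPM in uninjured 1 and between 32.9 and 36.7 CPM in the other 5 samples. It was the only one of 44 members with an uninjured sample this far from the rest, and about 1 in 20 groups would show such a sample by chance. The value was kept.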

How the results depend on the processing

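The 9 samples are pools of animals that fall into pairs of similar libraries, with 3 injured samples, so standard errors rest on few units. With these pairs summed, 4181 of 15454 genes tested passed (6256 of 14234 with all samples). Of 42 receptor genes tested there, 24 fell and 0 rose. Leaving out pairs was chosen after seeing the data: 3160 genes passed without injured 1 and injured 2 (6256 with all samples), 21 receptor genes fell and 0 rose. In cells with 3 to 5% Malat1, 3528 of 10725 genes tested passed, and 20 of 36 receptor genes tested fell, beside 15.6% of all genes. Over all settings 20 to 30 receptor genes fell. The most fell with 10 libraries as separate samples, where 7166 of 14052 genes tested passed.

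Of the 3 rises (Gria1, Grik3 and Glra1), 1 was kept with library totals alone and 1 in cells thinned to 8000 UMIs. With 1 sample left out, the number of receptor genes that rose was lowest at 0, without injured 1 (4961 of 14378 genes tested passed). It was highest at 4, without uninjured 4 (5918 of 13885). The share of Gria1 in AMPA receptor UMIs differed by 25.1 points between group means, and by 30.2 points in cells without markers of another class. The number of members found in fewer injured cells went from 25 after thinning to 29 at the cells' own depth.

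Signs changed for genes with small changes. In cells with 3 to 5% Malat1, the log2 fold change was 0.0487 for Grik2, 0.15 for Glrb and 0.00676 for Glra2, against -0.57, -0.16 and -0.42 in all cells. The cause was not tested.

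Library number was also used as a replicate block over libraries 1 to 4. This takes injured 3 and injured 4 as separate, although they share barcodes. With the block 7782 of 13943 genes tested passed, more than the 6256 of 14234 in the main fit. Of 40 receptor genes tested there, 29 fell and 3 rose, with Grik3 lost and Gabrg3 gained among the rises. In the same libraries without the block 8230 of 13943 genes tested passed, and of 40 receptor genes tested 29 fell and 2 rose. Passing genes were not split by direction in these 2 fits. Libraries of the same number were no more alike than others (correlations of -0.056, 0.013, -0.029 and -0.053). Since libraries within a group are themselves alike in pairs, these correlations cannot decide whether the numbers pair libraries.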
